A study of Caenorhabditis elegans with 6 samples.

Results

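The genes described here are 149 protein-coding genes of the nematode Caenorhabditis elegans on which wild type adult males carried many 26G-RNAs, with 1 of them, ZK507.3, now annotated as a pseudogene. A gene was taken when its richest isoform had at least 100 antisense reads of 26 nt starting with G (26G reads), summed over the 3 wild type libraries, and 163 of 20222 protein-coding genes reached that number. Genes of the named sperm families msp, ssp, spe, nspd and msrp and a few single genes were left out by name, which removed 14 genes and left 149, or 0.737% of all protein-coding genes. Because these genes were chosen by their wild type 26G reads, their 26G levels are given as a description with no test, and the reads tested are the 22G reads, which are antisense, 21 to 23 nt long and have G as first base.

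Small RNA was sequenced from whole males in 3 wild type libraries and 3 libraries of a prg-1 null mutant, which lacks the piRNA-binding Argonaute PRG-1, to compare 22G siRNAs on protein-coding genes. Each library came from a pool of 20 to 30 males that were picked as mid-L4 larvae, kept at 25 °C and collected as adults 24 h later, with no other treatment. The allele of prg-1 is called only null in the labels, and the labels do not say that the libraries of a genotype came from separate cultures, so p-values measure the spread between these libraries, which may be technical. Genome-aligned reads numbered 973971 to 1799846 in wild type and 1133888 to 2205341 in prg-1 null. Antisense 22G reads on prg-1 itself numbered 143, 441 and 88 in wild type against 7, 15 and 9 in the null. They fell by 5.09 log2 units, with an SE of 0.47 (adjusted p by edgeR = 5.8e-09). prg-1 met the minimum of reads for this test in every wild type library but not in every null library. It thus entered through the group where it was high. These are siRNA reads, and 32.6% of all tested genes fell, so the fall alone does not show that prg-1 is null.

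26G-RNAs are primary siRNAs that an RNA-dependent RNA polymerase (RRF-3) and Dicer make from messenger RNA, and they are antisense to it and start with G. In the male germline they are bound by the Argonautes ALG-3 and ALG-4 and are known to target genes of spermatogenesis, while another class in oocytes and embryos is bound by ERGO-1. They can start the making of 22G-RNAs, secondary siRNAs bound by other Argonautes, whereas piRNAs bound by PRG-1 start 22G synthesis on their own targets.

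The length of the antisense reads set these genes apart from the rest of the table. 26G reads made up 56.9%, 53.4% and 42% of all antisense reads on the 149 genes in wild type against 47.2%, 46.6% and 40.8% in the null. On the other protein-coding genes, without the 14 genes left out by name and without daf-15, they made up 7.12%, 4.33% and 2.68% in wild type against 3.30%, 3.79% and 2.44% in the null. The rule chose genes by the number of 26G reads, so a high share is partly its result. The rule also counted only reads starting with G, so a high share of G is partly its result too. Of the 26-nt antisense reads on the 149 genes, 99.1% to 99.4% started with G, against 73.8% to 91.2% on those other genes. Reads of 25 nt starting with G, next in length, made up 7.75% to 15.4% of antisense reads on the 149 genes in the 6 libraries, and reads of 27 nt 7.21% to 10.6%.

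**Figure D1:**
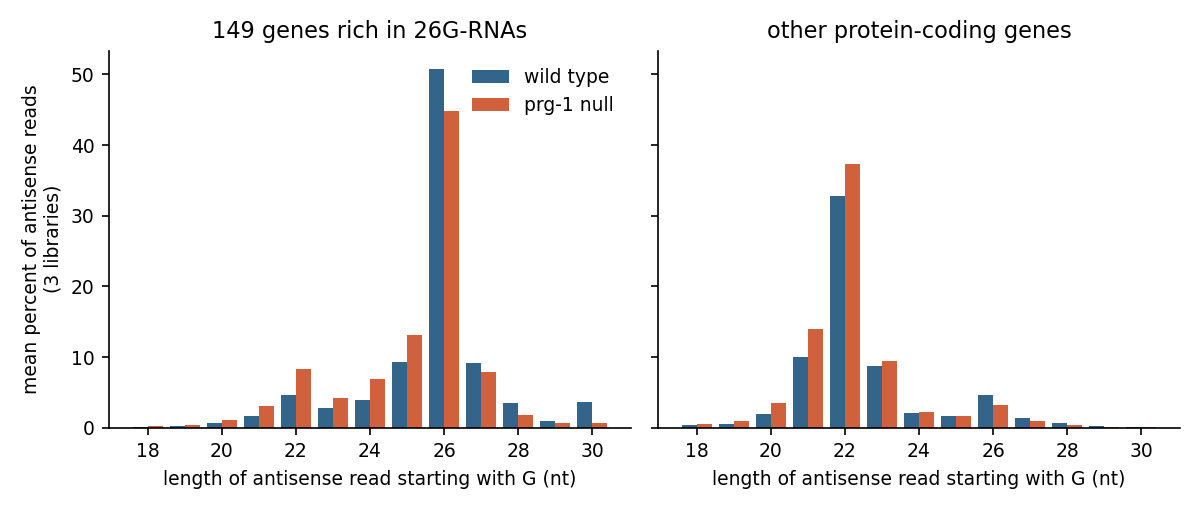
Mean percent of antisense reads (3 libraries per genotype) that start with G, by read length in nt, for the 149 genes (left) and other protein-coding genes (right), in wild type (blue) and prg-1 null (orange). The other genes are without the 14 genes left out by name and without daf-15. The tallest bars stand at 26 nt on the 149 genes, with means of 50.8% and 44.8%, and at 22 nt on the others.

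22G reads were the smaller class on these genes. They made up 6.13%, 9.99% and 11.2% of the antisense reads on the 149 genes in wild type against 13.8%, 16.4% and 17% in the null, so each prg-1 null library stood above each wild type library. A share depends on both classes, and the 26G share differed between libraries as well. In reads per 1000000 reference reads (RPM; reference reads are genome-aligned reads without those of rbd-1 and daf-15, which took 189368 to 405757 reads per library), 22G reads on the 149 genes came to 1703 ± 506 in wild type against 3035 ± 513 in the null (SD, n = 3 each). On all protein-coding genes together, 22G reads came to 137251 ± 48291 RPM in wild type against 206257 ± 1571 in the null, 1.5 times the wild type mean, where the 149 genes stood at 1.78 times. The median gene of the 149 had 7.05 26G reads for each 22G read in wild type against 3.02 in the null, and 26G reads outnumbered 22G reads on 145 genes in wild type and on 124 in prg-1 null. The rule chose these genes by their wild type 26G reads, which raises the wild type ratios and lowers the wild type 22G shares. The differences between genotypes in both may come from this and were not tested. The gene furthest from this was ZK1010.5, with 0.259 26G reads per 22G read in wild type.

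A few genes held much of the total. The 149 genes held 37120 of 81657 wild type 26G reads on protein-coding genes, or 45.5%, and 43.9% of those in prg-1 null. This share was 45.7%, 45.7% and 42.8% in wild type against 43.2%, 43.1% and 45.3% in the null, ranges that overlap. The 3 richest genes held 13.4% and the 10 richest 26.4% of the wild type 26G reads of the set, while the median gene had 175 reads. Just inside the limit were C50F2.5, F11G11.4 and T05B4.14 (now named clc-18) with 100 reads each, and just outside it were C15H7.3 and C25G4.8 with 99 and Y105E8A.27 with 98. In prg-1 null, 113 of the 149 genes (75.8%) also reached 100 reads, and 155 protein-coding genes did in all.

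The third wild type library stood apart from the others, and every 26G comparison here rests on it. It had 7008 26G reads on protein-coding genes, where the other wild type libraries had 33038 and 41611. In RPM, 26G reads on all protein-coding genes came to 31859, 26456 and 11176 in wild type against 21031, 23755 and 14984 in the null. The genotypes overlapped, and the ratio of means was 0.860. The total holds the wild type reads that the rule used, 45.5% of them on the 149 genes, so it is given with no test. Without the third wild type library the ratio was 0.683, and without the first it was 1.06.

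Summed over the 149 genes, the 26G level was 14561, 12094 and 4781 RPM in wild type against 9093, 10229 and 6790 in the null, a ratio of 0.831. The first and second wild type libraries were above every prg-1 null library and the third was below every one. The ratio was 0.653 without the third wild type library and 1.03 without the first. Gene by gene, the median ratio of prg-1 null to wild type was 0.767, with 114 genes below 1 and 35 above. Genes chosen for high wild type values lean towards a ratio below 1 for that reason alone, so the lean is not a result. Of the 149 genes, 125 lay within 2-fold. Per 1000000 26G reads of the same library, which takes out the library's 26G total, the median ratio was 0.864 and 58 genes were above 1.

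7 genes (K09G1.2, F47B3.7, C32D5.8, pck-3, C06C3.10, ZK688.10 and C24H11.1) were lower in every prg-1 null library than in every wild type library, and 0 were higher in every one. Among the 1782 protein-coding genes with at least 10 26G reads, 6.73% were lower and 3.98% higher in this way, and since the rule used this contrast nothing is read from the comparison. The count depended on single libraries, and was 78 without the third wild type library and 20 without the second prg-1 null library. The share over all genes with those libraries left out is not given here, so nothing is read from these counts either. Per 1000000 26G reads, 17 genes were lower and 10 higher in every prg-1 null library, where 6.68% and 8.25% of the 1782 genes were.

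**Figure D2:**
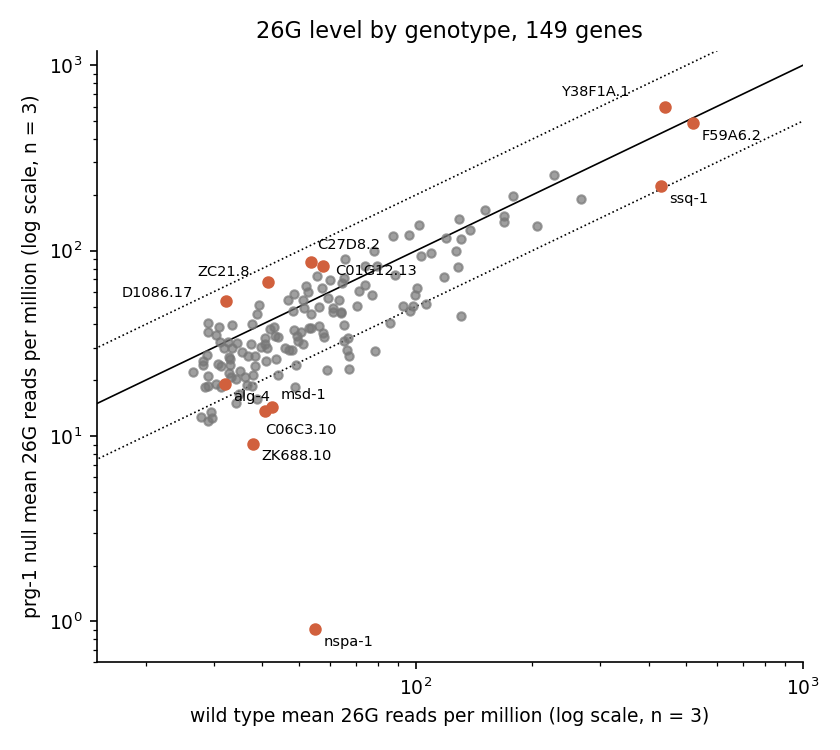
Mean 26G RPM in prg-1 null against wild type (n = 3 each, both axes logarithmic) for the 149 genes. The solid line marks equal levels and the dotted lines 2-fold differences, the labelled genes are in orange, and 125 genes lie between the dotted lines while nspa-1 lies far below them.

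The 12 richest genes are known by sequence names only, apart from ssq-1, F35E2.9 (try-16 in RefSeq, a trypsin-like protease by name) and nspa-4. F59A6.2 (WBGene00019084; WBcel235 chromosome II, 5014699 to 5015328) had the most wild type 26G reads, 1863, and also the most per kb of transcript, 4059 where the median of the set was 183. Its level was 838, 568 and 161 RPM in wild type against 532, 492 and 438 in the null. The prg-1 null libraries lay close together and inside the wild type range.

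Y38F1A.1 (WBGene00012605; chromosome II, 12952490 to 12954770) had 718, 444 and 158 RPM in wild type against 606, 703 and 484 in the null, a ratio of 1.36. K03H1.12 (chromosome III, 9941624 to 9942345) had 247, 364 and 193 in wild type against 215, 216 and 136 in the null. In both genes the genotypes overlapped.

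The other genes among the 12 with the most reads were K08C9.2, ZK849.6, M117.4, F35E2.9, F27C1.3, K03B4.6 and F08H9.2, which had 520 to 843 wild type reads. Their ratios of prg-1 null to wild type were 1.13, 0.659, 1.11, 0.912, 0.848, 1.10 and 0.938 in that order. In 6 of these 7 genes the third wild type library was the lowest of all 6 libraries, and the exception was F27C1.3.

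**Figure D3:**
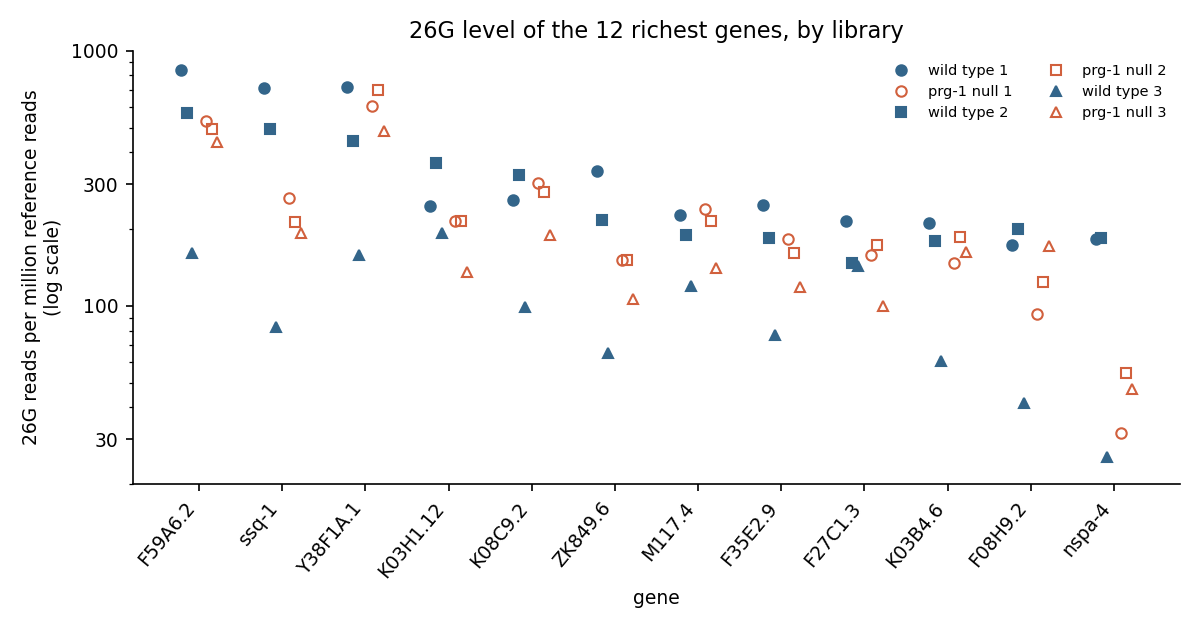
26G RPM (logarithmic axis) of the 12 genes with the most wild type 26G reads, one point per library, with wild type filled blue and prg-1 null open orange. The third wild type library (filled triangles) is at or near the bottom of most genes, and the genotypes overlap in all 12.

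Genes classed as sperm proteins by their gene-class name, outside the left-out families, numbered 5. The 114 genes with a sequence name only were not classed by role. Other sperm genes may thus be among them or in other role groups. All 5 had a ratio below 1, where 114 of the 149 genes of the set did. The rule chose genes by their wild type reads, which favours such ratios, so nothing is read from this count. The level of ssq-1 (WBGene00006050; chromosome IV, 9852550 to 9853609), a sperm-specific protein by its gene class, was 714, 493 and 82.9 RPM in wild type against 265, 213 and 193 in the null, a ratio of 0.520. The first 2 wild type libraries were high and the third was the lowest of all, so the groups overlapped. spch-1 and spch-2, which encode sperm chromatin proteins, had ratios of 0.628 and 0.801.

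msd-1, which encodes a protein with a major sperm protein domain, had 64.6, 47.0 and 15.9 RPM in wild type against 10.6, 24.4 and 7.78 in the null, and its ratio of 0.335 was among the 4 lowest. smz-1, a PDZ domain protein of sperm meiosis, had a ratio of 0.767, equal to the median of the set. Within 26G reads, spch-2 was at 1.09 and smz-1 at 1.00, where ssq-1 was at 0.711 and msd-1 at 0.392.

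The small peptide genes nspa-1 and nspa-4 (nspa-5 in the current annotation), 1982 bases apart on chromosome V, were both low in prg-1 null. nspa-1 (WBGene00010377; 14886803 to 14886907) had 113, 88 and 0 26G reads in wild type against 0, 3 and 1 in the null, the lowest ratio of the set at 0.0164. The third wild type library was at 0 as well, so the groups overlapped. nspa-4 had 182, 184 and 25.5 RPM in wild type against 31.8, 54.6 and 47.2 in the null. These genes are near-identical copies that may exchange reads, so single-gene values are uncertain. Summed over the 10 protein-coding genes of the family, 26G reads numbered 341, 449 and 19 in wild type against 36, 100 and 110 in the null, again high in the first and second wild type libraries only.

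Other genes at the ends of the range were known by sequence names. ZK688.10 (chromosome III, 7895486 to 7897025) had 25.1, 58.5 and 30.3 RPM in wild type against 2.35, 14.4 and 10.6 in the null, a ratio of 0.240. C06C3.10 had 38.6, 61.0 and 22.3 in wild type against 21.2, 15.8 and 3.89 in the null, a ratio of 0.335. Both were lower in every prg-1 null library. At the other end, D1086.17, ZC21.8, C27D8.2 and C01G12.13 had ratios of 1.67, 1.63, 1.63 and 1.43, and their groups overlapped RPM. Per 1000000 26G reads all 4 were higher in every prg-1 null library.

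The genes with a gene-class name other than these spread over many roles. The 4 kinases had ratios from 0.494 to 0.725: gska-3 (gskl-2 in the current annotation, a kinase like glycogen synthase kinase by name), C39H7.1 (ttbk-8.2), cdk-1, the cyclin-dependent kinase of mitosis, and kin-26. The 5 genes of metabolism had ratios from 0.613 for pck-3, a phosphoenolpyruvate carboxykinase, to 1.17 for sfxn-1.2, a mitochondrial sideroflexin. pck-3 had 67.5, 81.4 and 46.2 RPM in wild type against 44.7, 46 and 28.9 in the null, with no overlap. Among the genes of translation, inf-1, an initiation factor helicase, was at 0.625, the ribosomal protein gene rpl-5 at 0.727 and the prolyl-tRNA synthetase gene pars-1 at 1.24.

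Lectins and surface proteins ranged from 0.484 for clec-79, a C-type lectin, to 1.10 for irld-14. Among 4 genes of transport and the cytoskeleton, the cation ATPase gene catp-4 was at 0.488 and the dynein light chain gene dlc-6 at 0.542, while the small GTPase gene arf-1.2 was at 1.10 and Y59E9AL.6 (cylc-1) at 1.21. The 114 genes with a sequence name only had a median ratio of 0.794 and a range from 0.240 to 1.67. The role groups were formed after the values were seen.

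alg-4 (WBGene00006449; chromosome III, 9887209 to 9891424), which encodes 1 of the 2 Argonautes of male 26G-RNAs, was itself in the set. It had 51, 49 and 10 26G reads in wild type against 14, 31 and 33 in the null, a ratio of 0.593 with overlapping groups. Its close relative alg-3 had 27 in wild type against 30 in the null, under the limit. Over the 13 genes of 26G production and its Argonautes in the table, 9 had 0 wild type 26G reads, and alg-4 alone was in the set.

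Among marker lists of several tissues, 26G reads lay almost wholly on the sperm list. All 18 sperm genes of a marker list had 26G reads, 1520 in wild type against 902 in the null, although names of these families are left out of the set. 13 oocyte genes had 3 and 15 reads, with 10 at 0 in wild type. The lists for muscle, intestine and neuron had 0 in both genotypes, and that for epidermis had 0 and 2. These are siRNA reads and not levels of messenger RNA, and in whole animals fewer cells of a type and less RNA per cell cannot be told apart. 12 genes reported as targets of the ERGO-1 class had 65 reads in wild type against 100 in the null, with none above 16 in wild type.

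No gene of the set was on the X chromosome. The autosomes held 33, 29, 24, 41 and 22 of the 149 genes on chromosomes I to V, while X, with 13.7% of protein-coding genes, held 0. Over all genes, 0.449% of wild type and 0.463% of prg-1 null 26G reads fell on X, and the richest X gene there, vha-15, had 80 wild type reads. Chromosome IV held 41 genes, 1.24% of its protein-coding genes, and V held 22, 0.434%.

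**Figure D4:**
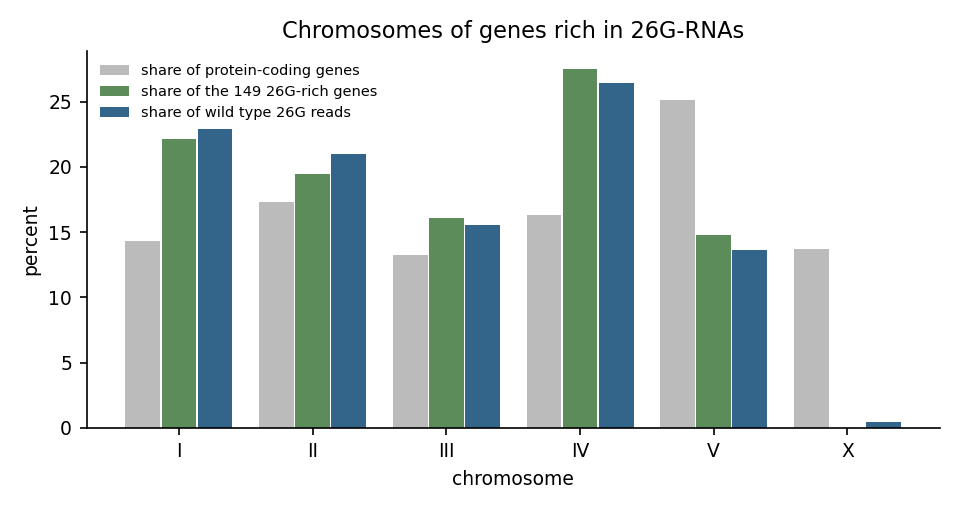
Percent of protein-coding genes (grey), of the 149 genes (green) and of wild type 26G reads on protein-coding genes (blue) on each chromosome. Chromosome X holds 13.7% of genes, none of the 149 and 0.449% of the reads.

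The gene models resembled those of the whole annotation more than those of the left-out sperm genes. Median transcript length was 963 nt, where it was 1088 nt over all protein-coding genes and 408 nt in the 14 left-out genes. The median number of exons was 4, 5 and 1 in that order. A single exon was annotated in 8 of 148 genes of the set (5.41%), in 3.05% of all protein-coding genes and in 13 of the 14 left-out genes. 13 genes of the set had exons that overlap an exon of a gene on the other strand, over more than 50% of their exon bases in 1 of them, F56D5.2. Reads antisense to these genes cannot be told from sense reads of the partner.

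The 22G reads, which the rule did not use, were compared between genotypes by edgeR's quasi-likelihood test over 2879 protein-coding genes that passed a minimum of reads. Of the 149 genes, all but 45 passed it, and those 45 had 6 to 70 22G reads over the 6 libraries and were not tested. In prg-1 null 5 of the tested genes of the set rose and 3 fell at an adjusted p under 0.05, where 12.4% of all tested genes rose and 32.6% fell. These 8 genes are 7.69% of the tested genes of the set, beside 45.0% of all tested genes. Of the tested genes of the set, 29 passed the minimum in every library of prg-1 null but not of wild type, 11 the other way round, and 38 in each of the 6 libraries, and 3 of these 38 were called, beside 28.4% of the 673 such genes in all.

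The differences on the tested genes of the set were small beside those on all tested genes. The median log2 fold change of prg-1 null to wild type was 0.21, where it was -0.11 over all tested genes, and the median size of the change was 0.49, where it was 1.36. The set and all tested genes had about the same depth, with median levels of 99.0 and 98.1 CPM (counts per 1000000 22G reads). The median SE was 0.65 on the log2 scale for the set, where it was 0.71 over all tested genes, and an interval of 2 SE either way lay within 2-fold for 1 gene and within 4-fold for 60. For most genes a 2-fold change was therefore not detectable at this depth.

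**Figure D5:**
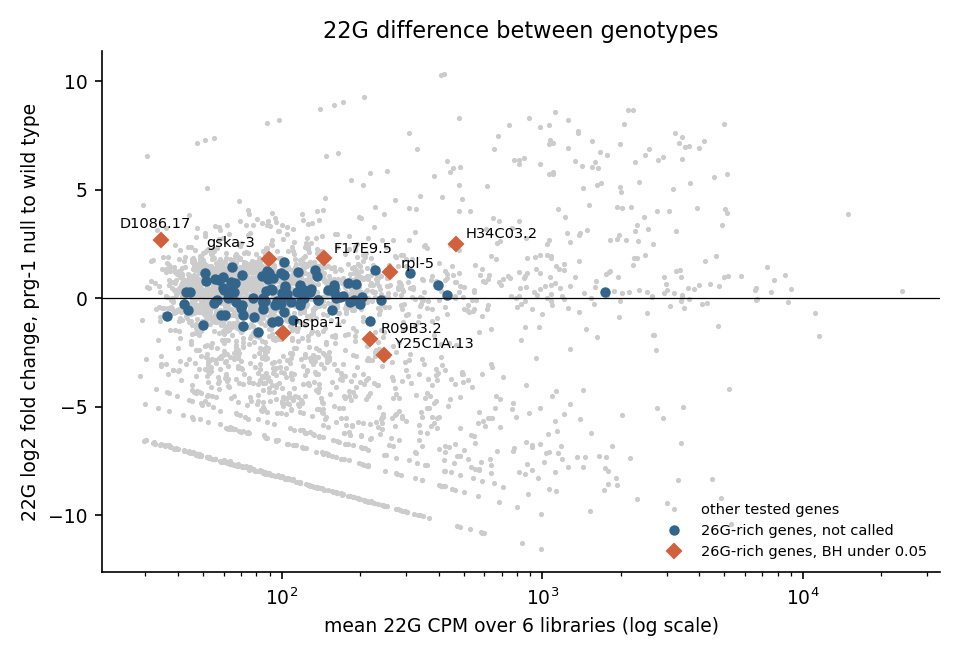
22G log2 fold change of prg-1 null to wild type against the mean 22G level in CPM (logarithmic axis) for 2879 tested genes, with the tested genes rich in 26G-RNAs in blue where not called and in orange where the adjusted p was under 0.05. The coloured genes lie between -2.61 and 2.67, while many other genes lie far outside that range.

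H34C03.2 (usp-4, a ubiquitin-specific protease by name; WBGene00019259; chromosome IV, 6757311 to 6762602) gave the smallest p among the 5 genes that rose. It had 15, 42 and 6 22G reads in wild type against 129, 188 and 263 in the null, or 134 ± 48 and 796 ± 85 CPM (SD, n = 3 each). Every prg-1 null library was above every wild type library, and the log2 fold change was 2.50 ± 0.46 (SE; adjusted p by edgeR = 6.69e-05). Its 26G level was 36.6, 41.3 and 22.3 RPM in wild type, and the null libraries lay between 38.9 and 40.2, inside that range.

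F17E9.5 (chromosome IV, 8345818 to 8346546) had 6, 23 and 1 22G reads in wild type against 36, 78 and 55 in the null, a log2 fold change of 1.88 ± 0.59 (SE; adjusted p by edgeR = 0.0108). The groups did not overlap. Its 26G level, 47.3, 42.6 and 12.8 RPM in wild type and 20.4 ± 11.2 RPM (SD, n = 3) in the null, overlapped.

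3 other genes rose with adjusted p-values nearer the threshold. D1086.17, with few reads (1, 3 and 0 in wild type against 11, 14 and 19 in the null), rose by 2.67 ± 0.94 on the log2 scale (adjusted p by edgeR = 0.0222), and it also had the highest 26G ratio of the set. D1086.17, gska-3 and F17E9.5 met the minimum of reads in every null library but not in every wild type library, so they entered the test through the group where they were high. gska-3 rose by 1.80 ± 0.70 (adjusted p by edgeR = 0.0403) with a 26G ratio of 0.494. rpl-5, a component of the large ribosomal subunit, rose by 1.2 ± 0.48 (adjusted p by edgeR = 0.0427), from 158 ± 24 to 364 ± 109 CPM. In all 3 the 22G levels of the genotypes did not overlap. With any 1 library left out D1086.17 was no longer called (adjusted p by edgeR 0.0632 to 0.0961 where still tested), gska-3 was called only without the third wild type library (0.0229 to 0.214) and rpl-5 only without the first null library (0.0238 to 0.186).

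Y25C1A.13 (WBGene00021296; chromosome II, 3109365 to 3111247) fell the most. It met the minimum of reads in every wild type library but not in every null library. It thus entered the test through the group where it was high. It had 54, 47 and 41 22G reads in wild type against 13, 10 and 26 in the null, or 426 ± 198 and 68.4 ± 26.8 CPM, and the log2 fold change was -2.61 ± 0.55 (SE; adjusted p by edgeR = 0.000345). Longer antisense reads moved with it. Reads of 30 nt starting with G numbered 473, 435 and 477 on this gene in wild type against 74, 155 and 75 in the null, or 456, 277 and 761 RPM and 87.1, 111 and 41.7 RPM. They made up 79.4% to 95.4% of such reads on all 149 genes in wild type and 47.8% to 66.5% in prg-1 null, and their part in the 22G difference was not tested.

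R09B3.2 (rbm-3.1, an RNA-binding protein by name; chromosome I, 11909366 to 11909991) had 50, 91 and 13 22G reads in wild type against 13, 26 and 30 in the null, and fell by 1.90 on the log2 scale (SE 0.50; adjusted p by edgeR = 0.00291). nspa-1 had 14, 41 and 11 in wild type against 5, 17 and 16 in the null, and fell by 1.60 (SE 0.61; adjusted p by edgeR = 0.0362), with the uncertainty of near-identical copies given above. In CPM the genotypes did not overlap in either gene. Like Y25C1A.13, nspa-1 met the minimum of reads in every wild type library but not in every null library. It thus entered the test through the group where it was high. With 1 library left out nspa-1 was called only without the second null library (adjusted p by edgeR 0.0451 to 0.121). The 22G and 26G levels of nspa-1 were thus both lower in prg-1 null in the mean, while for 26G reads the groups overlapped.

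Of the 12 genes richest in 26G reads, none passed the test for 22G reads under the main settings. F59A6.2 had a 22G log2 fold change of 0.63 ± 0.57 (adjusted p by edgeR = 0.411), ssq-1 of -0.16 ± 0.51 (adjusted p by edgeR = 0.829) and Y38F1A.1 of 1.65 ± 0.70 (adjusted p by edgeR = 0.0614). Y38F1A.1 and F08H9.2 passed it under some alternatives: with genome scaling (adjusted p by edgeR = 0.0119 and 0.0150) and without the first null library (0.0328 and 0.0143), Y38F1A.1 also without the first wild type library (0.0456) and F08H9.2 with 22-nt reads alone (0.0156). K03H1.12, K08C9.2, M117.4, F35E2.9, K03B4.6 and F08H9.2 had -0.09, -0.11, 0.29, -1.03, -0.998 and 1.16 in that order. ZK849.6, F27C1.3 and nspa-4 had too few 22G reads to be tested.

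Among the genes at the ends of the 26G range, ZK688.10 had a 22G log2 fold change of -0.83 ± 1.05, C06C3.10 of 0.98 ± 0.78, msd-1 of -0.21 ± 0.75, C01G12.13 of 0.75 ± 0.76 and ZC21.8 of -1.08 ± 0.63, and these 5 did not pass the test. C27D8.2 had too few reads to be tested under the main settings, where untested genes of the set had at most 70 over the 6 libraries. It was called as higher only without a filter (adjusted p by edgeR = 0.0356), without the first wild type library (0.0115) and without the second null library (0.00860). With so few reads, nothing is read from these calls. At the limit of the rule F11G11.4 had 0.40 ± 0.73. alg-4 had 0.07 ± 0.56 (adjusted p by edgeR = 0.939).

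Of the genes of 26G production and its Argonautes, 6 were tested for 22G reads, and 2 fell and 0 rose, a share of falls near the 32.6% of all tested genes. rde-4, which encodes a double-stranded RNA-binding partner of Dicer, had 41, 97 and 10 22G reads in wild type against 1, 11 and 10 in the null, and fell by 3.44 on the log2 scale (SE 0.62; adjusted p by edgeR = 6.32e-05). eri-3, a partner of Dicer in 26G production, fell by 2.06 (SE 0.75, adjusted p by edgeR = 0.0282). Both rde-4 and eri-3 met the minimum of reads in every wild type library but not in every null library. They thus entered the test through the group where they were high. alg-3, ergo-1 and dcr-1 had 0.17, -0.44 and 0.08 and did not pass.

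The number of 22G calls depended on what the libraries were scaled to. Scaled to genome-aligned reads, with the minimum of reads applied again, 14 of 101 tested genes of the set rose and 1 fell, where 23.2% of 2541 genes rose and 27.3% fell. The median log2 fold change was then 0.80 for the set and 0.59 for all tested genes, so both medians were higher than under the main scaling.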

How the data were processed

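The authors deposited estimated counts, whole numbers with no normalization: per the file headers, trimmed reads on annotated transcripts and on genome bins, sense and antisense, each beside a breakdown of those reads into lengths and first bases (deposited as text), from which 26G and 22G reads were taken. FastQC 0.12.0, cutadapt 3.7 and WBcel235 are named in the submitters' processing notes. The aligner, with its rule for reads of several hits, is not given in the sources used here. Per the labels' protocols, RNA was treated with an acid pyrophosphatase, so that RNAs with a 5′ triphosphate were cloned.

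Each gene was represented by 1 isoform, the richest in wild type 26G reads or, for 22G reads, that with the highest mean. 22G counts were tested with edgeR 4.0.16 (R 4.3.3; filterByExpr, TMM, quasi-likelihood test, genotype as the only term, Benjamini-Hochberg threshold 0.05 over all tested genes), and the script was tested on simulated data. 26G levels are reads per 1000000 reference reads, and no test of them is given. An exact permutation test was planned for their total over all genes, but that total holds reads used by the rule. Intervals and SDs come from 3 libraries per group, reads carry no molecular identifiers, and the depth of 22G reads per library was 69111 to 373032.

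Named were the 12 genes with the most wild type 26G reads, up to 6 called genes with the largest rise and fall of 22G, the 4 highest and 4 lowest 26G ratios, members of gene lists and the 3 genes on either side of the limit; other genes were named after their values were seen. The genes, lists and groups were chosen with earlier results of these data known. Gene structure and current names came from Ensembl release 115 of WBcel235. Alternatives were DESeq2 1.42.0, other scalings, filters, read lengths and isoforms, a replicate block and leaving out each library.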

Additional observations from a re-analysis of the deposited data

How the results depend on the processing

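Of the 8 genes called for 22G reads, H34C03.2, F17E9.5 and Y25C1A.13 kept their calls in every refit, and R09B3.2 in all but that with genome scaling (adjusted p = 0.0529). H34C03.2, R09B3.2 and rpl-5 are the called genes past the minimum in every library. D1086.17, gska-3, rpl-5 and nspa-1 each lost theirs under several, and 15 other genes of the set were called in at least 1 refit. The number that rose (5) was 14 with genome scaling, 3 without a filter, 2 with at least 10 reads in 3 libraries, 2 with a replicate block, 2 among genes past the minimum in every library (not refitted, chosen after seeing the data) and 2 to 6 with a library left out (2 without the third prg-1 null library, 3 without the third wild type or second prg-1 null library). The number that fell (3) was 1, 5 and 1 with genome scaling, at least 10 reads and that last set, and 2 to 3 with a library left out. The median log2 fold change (0.21) was 0.80 with genome scaling and 0.06 to 0.35 with a library left out.

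The number of genes with a lower 26G level in every prg-1 null library (7) was 3 with rbd-1 and daf-15 kept in the total, 17 per 1000000 26G reads, 27 and 4 with a limit of 50 or 200 reads, and 7 to 78 with a library left out. Apart from the count per 1000000 26G reads, no share over all genes is given for these settings. The limits of 50 and 200 reads also take in other numbers of genes, so nothing is read from these counts. The 26G total ratio was 0.683 to 1.06 with a library left out, and the sum over the genes 0.653 to 1.03.

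Some genes that did not pass the test changed sign. With genome scaling ssq-1, K03H1.12, K08C9.2 and msd-1 had 0.37, 0.40, 0.46 and 0.39. With 22-nt reads alone ssq-1 had 0.039 and alg-4 -0.13. alg-4 had -0.10 with at least 10 reads, -0.17 with the replicate block and -0.028 with DESeq2. With a library left out ssq-1 ranged from -0.75 to 0.14, K03H1.12 from -0.37 to 0.31, K08C9.2 from -0.87 to 0.65, M117.4 from -0.19 to 0.58, ZK688.10 from -2.05 to 0.10, msd-1 from -0.22 to 0.27 and alg-4 from -0.49 to 0.47. The cause of these changes was not tested.

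Replicate numbers gave no sign of pairing in the 22G levels. Deviations of same-numbered libraries correlated at -0.0305, 0.0419 and 0.0023, and those of different-numbered libraries at -0.0477 to 0.0358. Whether same-numbered libraries shared a batch was not tested. The block left 4 calls, 2 up and 2 down. Depth left 45 genes with too few 22G reads to be tested.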

Other observations

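Sense reads on the 149 genes were few. They came to 1380 ± 626 RPM in wild type against 809 ± 93 in the null (SD, n = 3 each). By library they were 2081, 1186 and 874 in wild type against 858, 867 and 701 in the null, so the groups did not overlap but the nearest values were close.

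11 pairs of the 149 genes lay next to each other within 10000 bases. T25B9.4 and T25B9.6 on chromosome IV were 426 bases apart on opposite strands, and R02D5.7 and R02D5.10 on chromosome V were 785 bases apart, also on opposite strands. Y25C1A.13, whose 22G reads fell, lay 2986 bases from clec-123, a C-type lectin gene with a 26G ratio of 0.502 and a 22G log2 fold change of -0.30 that did not pass the test (adjusted p by edgeR = 0.715).

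hrde-1, which encodes an Argonaute of inherited nuclear silencing and was outside the set, had 33 26G reads in wild type against 115 in the null, the most in prg-1 null among 17 genes of 22G production. Its 22G reads, 131, 263 and 31 in wild type against 45, 120 and 95 in the null, fell by 1.41 on the log2 scale (SE 0.44; adjusted p by edgeR = 0.00969).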
